A study of Homo sapiens with 6 samples.

Results

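GOLGA2 encodes GM130, a coiled-coil golgin on the cis face of the Golgi apparatus. It was followed transcript by transcript in K562 cells after knockdown (KD) of PCBP1. Its members were the 29 transcripts that GENCODE release 44 assigns to the gene, of 251612 annotated transcripts measured in each library. They were grouped by 2 exons of 81 bases each that some annotated transcripts splice over. The upstream exon, nearer the 5′ end, lies at chr9:128272785-128272865, and the downstream exon lies at chr9:128267194-128267274 (GRCh38, minus strand). GOLGA2 and both exons were chosen for the shares measured in these same libraries, so those shares and the transcript levels under them are descriptions, with no test.

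K562 is an erythroleukemia line. Cells were transduced with lentivirus carrying a pLKO.1 short hairpin RNA (shRNA) gene and a puromycin resistance gene, and were selected in puromycin for 4 days. The control group (shCtrl) carried a hairpin against luciferase, and the KD group (shPCBP1) carried a hairpin against PCBP1, with 3 poly-A selected libraries in each group. Each group rested on 1 hairpin, so effects of PCBP1 loss and other effects of that hairpin cannot be told apart. Nothing in the labels says whether the libraries came from separate transductions, so p-values measure the spread between these libraries, which may be technical.

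Golgins tether incoming vesicles and hold Golgi cisternae together. The N-terminal end of GM130 binds the vesicle tether p115 and importin alpha, and its C-terminal end binds GRASP65. PCBP1 is a KH-domain protein that binds runs of C in RNA and acts as a splicing factor.

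The libraries held between 67066747 and 140522444 estimated counts. Of 7 genes that erythroleukemia cells express, among them GATA1, KLF1 and the gamma-globins, the levels ran from 36.6 to 14991 TPM over all libraries (a relative abundance scaled by transcript length), and 3 leukocyte genes (CD3E, MS4A1 and CD14) stayed at or below 0.450 TPM. PCBP1 itself had 40566, 38409 and 37799 normalised counts in shCtrl and 6625, 7277 and 7221 in shPCBP1. Its log2 fold change was -2.47 (SE 0.0439), and the libraries of each group stood far apart.

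GOLGA2 (ENSG00000167110.19) spans chr9:128255829-128276026 on the minus strand. The reference transcript, GOLGA2-213, has 27 exons and holds both exons, which are its exons 3 and 8. Each exon adds 27 codons, begins between codons and contains 0 in-frame stop codons, so skipping either one keeps the reading frame. Accordingly, the annotated protein has 1029 residues with both exons, 1002 with either one and 975 with neither. The upstream exon follows residue 69 and the downstream exon follows residue 187 of the longest form, so both lie towards the N-terminal end of GM130. The sequences below are shown because these are the bases whose presence distinguishes the transcripts. They are written 5′ to 3′ on the transcribed strand from the GRCh38 reference, with runs of 3 or more C in capitals.
Upstream exon: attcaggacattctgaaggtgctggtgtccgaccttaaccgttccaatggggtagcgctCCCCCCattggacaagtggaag
Downstream exon: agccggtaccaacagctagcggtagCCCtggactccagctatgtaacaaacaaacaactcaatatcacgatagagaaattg

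The 50 intronic bases before each exon are shown next, since PCBP1 binds C-rich RNA. They cover chr9:128272866-128272915 before the upstream exon and chr9:128267275-128267324 before the downstream exon, and capitals mark the same runs of C.
Before the upstream exon: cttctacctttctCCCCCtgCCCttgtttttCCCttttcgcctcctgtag
Before the downstream exon: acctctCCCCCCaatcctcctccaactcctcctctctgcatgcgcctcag

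C made up 42% of the window before the upstream exon and 54% of the window before the downstream exon. Across 185063 such windows before internal exons of protein-coding transcripts the median was 22%. As much C as before the upstream exon was found in 10.5% of those windows, and as much as before the downstream exon in 1.13%. The window before the upstream exon held 3 separate runs, the longest of 5 C, and the window before the downstream exon held 1 run of 6 C. A run at least that long was present in 8.38% and 1.80% of all windows. Searched on the transcribed strand alone, CCC was present in 49.2% of all windows, CCCC in 24.3% and TCCC in 32.9%, where CCC matches lie within the other motifs. Both GOLGA2 windows held all 3 motifs.

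GOLGA2 was rich in C in such windows in general. Over the windows before its 25 internal exons the median was 36% C, with a range from 18% to 54%, and 13 of the windows held CCCC. The window before the downstream exon ranked 1 and the one before the upstream exon ranked 4 in C content. The exons themselves held 25.9% C each, close to the median of 24% over 189031 internal exons. These matches describe letters in a window and show no binding.

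**Figure D1:**
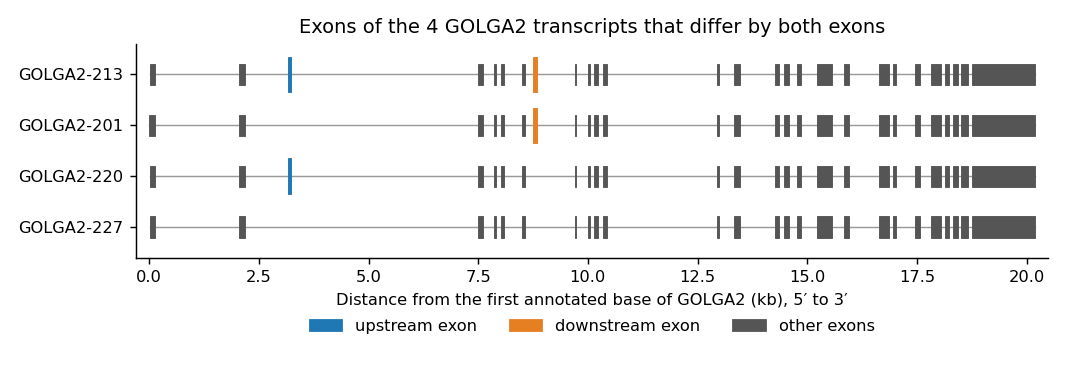
Exons (boxes) and introns (lines) of the 4 GOLGA2 transcripts of at least 1 TPM that hold or skip both exons, drawn to scale by distance in kb from the first annotated base. Blue marks the upstream exon and orange the downstream exon, so the 4 rows show all 4 combinations.

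The 4 full-length coding transcripts that carry the combinations of both exons made up most of the GOLGA2 signal. GOLGA2-201, which holds the downstream exon alone, was the most abundant transcript in shCtrl. Its levels were 18.6, 20.9 and 19.9 TPM in shCtrl and 4.99, 5.92 and 8.38 TPM in shPCBP1, so every shPCBP1 library was below every shCtrl library. On average it went from 30.0% to 11.6% of the gene's TPM.

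GOLGA2-227, which holds neither exon, moved the opposite way. Its levels were 15.4, 14.9 and 13.0 TPM in shCtrl and 26.6, 26.4 and 25.1 TPM in shPCBP1, with no overlap. It was the most abundant transcript in all 3 shPCBP1 libraries and went from 21.9% to 46.9% of the gene's TPM. A fall in one transcript was thus accompanied by a rise in another, with mean differences of -13.4 TPM for GOLGA2-201 and 11.6 TPM for GOLGA2-227.

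The other full-length forms were lower and less steady. GOLGA2-213, which holds both exons, had 5.97, 7.06 and 3.05 TPM in shCtrl and 3.25, 2.46 and 0 TPM in shPCBP1. GOLGA2-220, which holds the upstream exon alone, had 2.87, 3.92 and 4.92 TPM in shCtrl and 0.219, 1.90 and 5.05 TPM in shPCBP1. The groups overlapped for both transcripts, and shPCBP1 library 3, which had the lowest GOLGA2-213, had the highest GOLGA2-220. A transcript listed at 0 here can be a failed estimate.

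Of the transcripts that do not cover both exons, 6 reached a mean of 1 TPM in either group. GOLGA2-206, a short transcript with a retained intron, had 6.80, 8.25 and 5.06 TPM in shCtrl and 5.99, 7.77 and 3.71 TPM in shPCBP1. The short coding GOLGA2-210 (2.87, 2.73 and 3.88 TPM against 2.23, 2.41 and 3.54 TPM) and the retained introns of GOLGA2-205 (2.30, 3.19 and 2.26 TPM against 2.37, 3.05 and 3.13 TPM) and GOLGA2-204 (1.29, 1.63 and 1.04 TPM against 1.59, 0.516 and 0.560 TPM) also overlapped between shCtrl and shPCBP1. Only GOLGA2-215 (1.57, 1.85 and 1.71 TPM against 1.23, 1.38 and 1.43 TPM) and GOLGA2-222 (1.03, 1.42 and 1.097 TPM against 1.03, 0.619 and 0.847 TPM), both with retained introns, had no overlap among these 6, and both were lower in shPCBP1.

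Of these 10 transcripts, 1 was therefore higher and 3 were lower in shPCBP1 without overlap. Across all 49126 transcripts of at least 1 TPM, 15.4% were higher and 14.6% lower in the same sense. The remaining 19 GOLGA2 transcripts summed to between 5.20 and 6.71 TPM in shCtrl and between 3.18 and 5.50 TPM in shPCBP1, which overlapped. Of these, 4 were at 0 in every library.

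By class, the 15 coding transcripts summed to 48.4 ± 3.15 TPM in shCtrl and 41.2 ± 3.31 TPM in shPCBP1 (SD, n = 3), without overlap. The 11 transcripts with a retained intron summed to 17.0 ± 2.96 and 14.0 ± 1.52 TPM (SD, n = 3), which overlapped. Transcripts with a retained intron held 25.8% of the gene's TPM in shCtrl and 25.3% in shPCBP1. TPM is scaled by length, so short transcripts can reach a large share from few reads. GOLGA2-206, 543 bases long, had a mean of 182 estimated counts in shCtrl, where the gene had 21783.

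**Figure D2:**
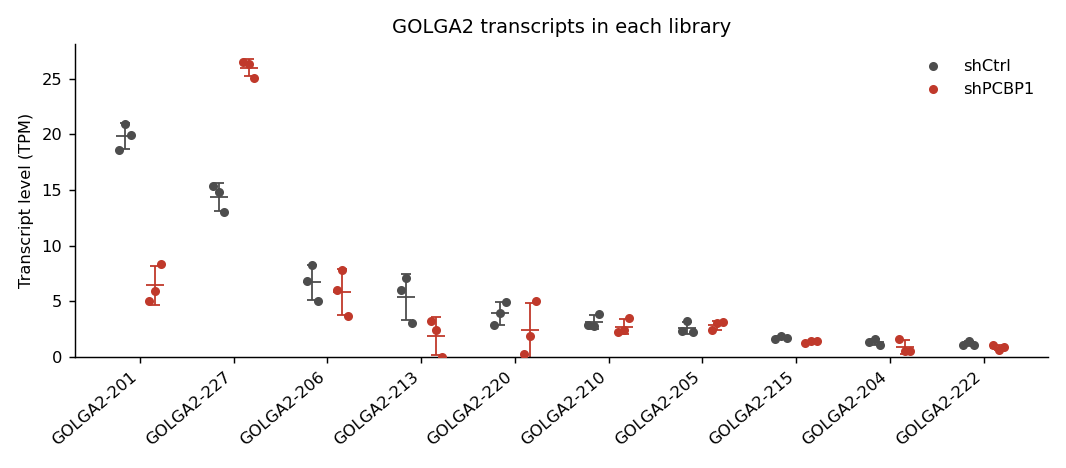
Level in TPM of the 10 GOLGA2 transcripts with a mean of at least 1 TPM in either group. Points are libraries, and lines give the group mean and SD over 3 libraries. GOLGA2-201 sits at 18.6 to 20.9 TPM in shCtrl and 4.99 to 8.38 TPM in shPCBP1, while GOLGA2-227 sits at 13.0 to 15.4 and 25.1 to 26.6 TPM.

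Exon inclusion was then taken as the TPM of transcripts that hold an exon, as a percent of the TPM of transcripts that hold it or splice over it. These are transcript estimates and not counts of junction reads. Transcripts with the downstream exon summed to 24.6, 28.0 and 23.0 TPM in shCtrl and to 8.24, 8.38 and 8.38 TPM in shPCBP1. Transcripts that skip it summed to 18.5, 19.1 and 18.2 TPM in shCtrl and to 27.0, 28.3 and 30.2 TPM in shPCBP1. The 2 forms moved in opposite directions, and neither overlapped between the groups. Inclusion was 57.1%, 59.5% and 55.8% in shCtrl and 23.4%, 22.9% and 21.7% in shPCBP1, a mean difference of -34.8 percentage points.

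The upstream exon was a minor form in both groups. Transcripts with it summed to 9.09, 11.3 and 8.23 TPM in shCtrl and to 3.70, 4.36 and 5.10 TPM in shPCBP1, with no overlap. Transcripts that skip it summed to 34.3, 37.5 and 33.4 TPM in shCtrl and to 32.1, 32.7 and 35.8 TPM in shPCBP1, which overlapped. Inclusion was 21.0%, 23.1% and 19.8% in shCtrl and 10.4%, 11.8% and 12.5% in shPCBP1, a mean difference of -9.75 points. So here the form with the exon was lower, while the form without it overlapped between the groups. These are bulk libraries, in which fewer cells with a transcript and less of it per cell cannot be told apart.

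Both exons are set here against other skipped exons as background. Among 29529 annotated skipped exons with at least 5 TPM, 9.95% were lower and 6.49% higher in shPCBP1 with no overlap between the groups. A fall as large as that of the downstream exon was seen in 0.0474% of them, and a fall as large as that of the upstream exon in 2.51%. The median difference over all of them was -0.05 points, and 12.0% differed by more than 5 points. Since both exons were selected on these values, their place in this range is no finding.

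Of 35 internal exon forms in the annotation, 9 are spliced over by at least 1 transcript. Among these 9, the downstream and upstream exons alone differed by more than 5 points. No annotated transcript splices over the remaining forms, so transcript estimates cannot show a change in their use. Exons 4, 5, 9 and 10 of the reference transcript were between 95.5% and 100% included in every library. A 66-base form of the downstream exon, which shares its 3′ end, was held by 1.37%, 0.470% and 2.46% of the TPM in shCtrl and 0.735%, 1.43% and 1.63% in shPCBP1. A 104-base exon further downstream was at 0.671%, 0.827% and 0.967% in shCtrl and 0.0422%, 0.398% and 0% in shPCBP1, lower without overlap but rare in all libraries.

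**Figure D3:**
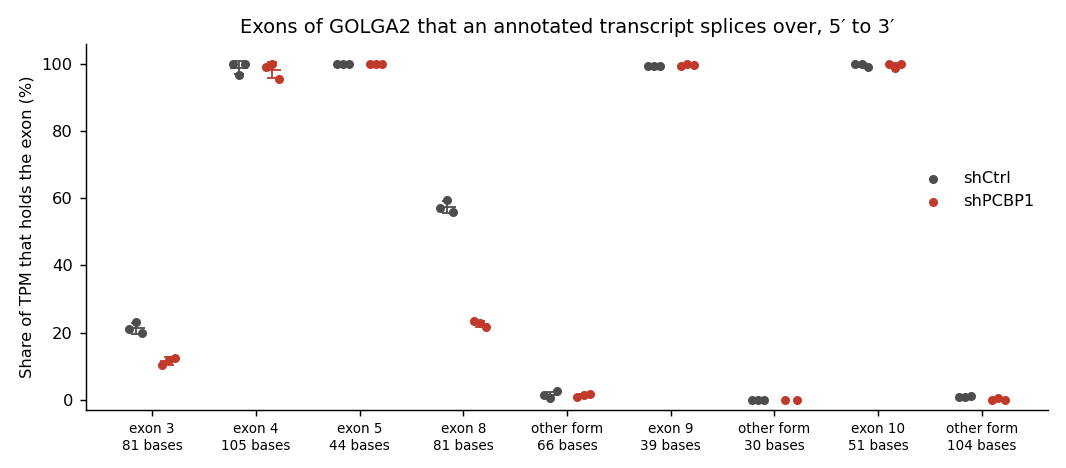
Share of TPM in percent that holds each of the 9 exon forms of GOLGA2 that an annotated transcript splices over, in order from 5′ to 3′, numbered as in the reference transcript. Points are libraries, and lines give the group mean and SD over 3 libraries (for the 30-base form 1 shPCBP1 library gave no value and no line is drawn). Exon 8, the downstream exon, and exon 3, the upstream exon, are lower in shPCBP1, and the other exon forms lie near 0 or 100% in both groups.

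Whether both exons sit in the same transcripts was asked next, over the 7 transcripts that could be classed for both. The class with neither exon, GOLGA2-227 alone, held 35.7%, 31.6% and 31.6% of their TPM in shCtrl and 75.3%, 71.9% and 65.1% in shPCBP1. The class with the downstream exon only held 43.2%, 44.5% and 48.4% in shCtrl and 14.2%, 16.2% and 21.7% in shPCBP1. Neither class overlapped between the groups, with mean differences of 37.8 and -28.0 points.

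Both classes with the upstream exon overlapped between the groups. Transcripts with both exons held 13.9%, 15.0% and 7.41% in shCtrl and 9.22%, 6.71% and 0% in shPCBP1. Transcripts with the upstream exon only held 7.24%, 8.90% and 12.6% in shCtrl and 1.29%, 5.18% and 13.2% in shPCBP1. The mean differences, -6.78 and -3.02 points, moved with single libraries. Without shPCBP1 library 3 they were -4.13 and -6.34 points, without shCtrl library 3 the second was -1.51 points, and without shPCBP1 library 1 it was -0.38 points.

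**Figure D4:**
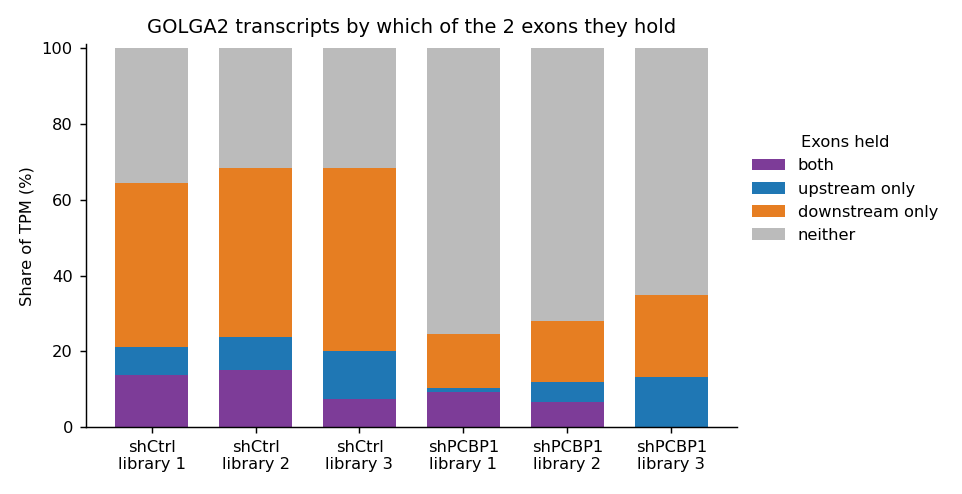
Share of TPM in percent of the 7 GOLGA2 transcripts classed for both exons, by the exons they hold, with 1 bar per library. The share with neither exon (grey) is 31.6% to 35.7% in shCtrl and 65.1% to 75.3% in shPCBP1, and the split between both exons (purple) and the upstream exon only (blue) differs from library to library.

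In shCtrl the mean share of the upstream exon was 20.9% in transcripts with the downstream exon and 22.4% in those without it. These means are close only because single libraries differed in opposite directions. By library, the share of the upstream exon was 24.3%, 25.2% and 13.3% of TPM in transcripts with the downstream exon. In those without the downstream exon it was 16.9%, 22.0% and 28.5%. Libraries 1 and 2 thus had the larger share in one class and library 3 in the other. In shPCBP1 the corresponding shares were 39.4%, 29.3% and 0% with the downstream exon and 1.68%, 6.72% and 16.9% without it, again with library 3 the reverse of libraries 1 and 2.

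Had both exons been included independently of each other, transcripts with both would have held 12.0%, 14.2% and 11.2% in shCtrl and 2.46%, 2.72% and 2.87% in shPCBP1. The estimates fell on both sides of these values in each group, above them in libraries 1 and 2 and below them in library 3. These estimates therefore gave no steady direction for coupling of both exons within a transcript. Among transcripts that skip the upstream exon, the downstream exon was lower in every shPCBP1 library than in any shCtrl library. Those transcripts held most of the TPM, so this largely repeats the difference for which the downstream exon was chosen. Inclusion of the downstream exon was 54.7%, 58.5% and 60.5% in shCtrl and 15.8%, 18.4% and 25.0% in shPCBP1 among those transcripts.

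The combinations differed in how steady they were between libraries. The summed TPM with the downstream exon had a coefficient of variation of 10.2% in shCtrl and 0.962% in shPCBP1, and that with the upstream exon 16.4% and 15.9%. For the class with both exons it was 38.7% and 89.1%, and for the class with the upstream exon only 24.7% and 95.7%. The other combinations were steadier, at 5.88% and 27.2% for the downstream exon only and 8.73% and 3.00% for neither exon. Between the exons lie 4 other exons with 273 bases in the mature transcript. For GOLGA2-203, which had 0 TPM in every library, length minus effective length, which depends in part on fragment length, was between 277 and 293 bases. For GOLGA2-213 the same difference was between 178 and 240 bases. Transcripts of the same library thus differed in this value, so it is not fragment length alone. The lower values do not show shorter fragments from GOLGA2-213. A read pair has to span those 273 bases to touch both exons.

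The annotated sequences also leave little to separate the combinations. Of all 31-base words in the GOLGA2 transcripts, 0 were found in GOLGA2-213 alone, 0 in GOLGA2-220 alone and 0 in GOLGA2-227 alone, and 5 in GOLGA2-201 alone. The annotated ends also differ with the exon combination, since GOLGA2-201 begins 19 bases before GOLGA2-213 and GOLGA2-227 and 31 bases before GOLGA2-220. The part of these ends in the class estimates was not tested. Each exon on its own is better marked. Of the 111 words that touch each exon in GOLGA2-213, 1 for the upstream exon and 0 for the downstream exon occurred in transcripts of other genes. Over the whole of GOLGA2-213 that was the case for 511 of 4328 words.

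The total of GOLGA2 was lower in shPCBP1. Normalised counts were 17070, 18169 and 16633 in shCtrl and 14340, 14545 and 15136 in shPCBP1, which did not overlap. Its log2 fold change in the genome-wide fit was -0.24 (SE 0.0426), with a Benjamini-Hochberg adjusted p of 4.27e-07 by the Wald test of DESeq2, a level of 84.9% of shCtrl with an interval at 95% from -0.32 to -0.15 on the log2 scale. Of 17079 genes with an adjusted p, 13.5% were lower and 17.7% higher at an adjusted p under 0.05. Among the 2312 lower genes, 1658 fell by more than GOLGA2. In TPM the gene had 63.9, 72.6 and 61.4 in shCtrl and 53.6, 55.6 and 57.3 in shPCBP1.

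SWI5, a plus-strand gene, overlaps the 5′ end of GOLGA2, including its first exon, from chr9:128275379 on. Whether the libraries kept strand was not given in the sources used here, and without strand reads from both genes cannot be told apart there. SWI5 also fell by 0.34 on the log2 scale (SE 0.0734) with a DESeq2 adjusted p of 3.67e-05, and its part in the GOLGA2 total was not tested. Neither of the 2 skipped exons lies in the overlap. Over the coding transcripts classed for both exons alone, the log2 fold change of GOLGA2 was -0.23. All of those transcripts begin within the overlap, so that value cannot show what SWI5 reads contribute.

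By the root mean square difference of log2 normalised counts over the 6 libraries, each gene centred on its mean, the genes most like GOLGA2 among 10759 were ULK3 (0.0127), N4BP2L2 (0.0146) and SUCO (0.0159). Their log2 fold changes were -0.24, -0.22 and -0.21, values that the choice of genes by likeness in the same libraries largely fixes.

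Genes that work with GM130 were examined as gene totals. Of 14 partner genes, 3 rose and 2 fell, where 17.7% of all genes rose and 13.5% fell, with a median log2 fold change of 0.05 against 0.0018 over all genes. GORASP1, which encodes GRASP65, had a log2 fold change of 0.11 (DESeq2 adjusted p 0.0531). USO1, which encodes p115, had 0.03 (DESeq2 adjusted p 0.597), and the Rab GTPases RAB1A and RAB1B had 0.02 and 0.08 (DESeq2 adjusted p 0.744 and 0.0601).

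The partners that rose were DNMBP (log2 fold change 0.34), a Cdc42 exchange factor also called Tuba, the kinase STK26 (0.25) and the spindle factor TPX2 (0.12). CDK1, the mitotic kinase that phosphorylates GM130, fell by 0.10 on the log2 scale. STK25, a kinase bound by GM130 and named after its value was seen, fell by 0.12. It lost its call without shCtrl library 1 and without shPCBP1 library 2. CDK1 lost its call with a transcript length offset (adjusted p 0.705), and DNMBP without shPCBP1 library 1 (adjusted p 0.0648, both DESeq2).

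Other golgins and Golgi matrix genes gave 5 rises and 2 falls among 14, with a median of 0.02. The largest rises were in GCC1 (log2 fold change 0.39), a trans-Golgi golgin, and GOLIM4 (0.37), an integral Golgi protein. GOLGA3 (0.16) and GOPC (0.13) rose too. GOLGA3 lost its call with a transcript length offset (DESeq2 adjusted p 0.292). GOPC lost it under the edgeR quasi-likelihood test (adjusted p 0.0604) and without shCtrl library 1 (DESeq2 adjusted p 0.0515). The falls, named after their values were seen, were in BLZF1 (-0.17), which encodes golgin-45, and GCC2 (-0.16). Both lost their calls without shCtrl library 1 and without shPCBP1 library 2.

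Of 8 subunits of the COG tether, COG2 (log2 fold change 0.26) and COG8 (0.25) rose, 0 fell and the median was 0.07. Of 8 SNAREs of the early secretory pathway and the Golgi, 4 rose and 1 fell, with a median of 0.12. The rises included GOSR2 (0.25), YKT6 (0.23) and STX6 (0.22), and BET1 fell by 0.41 on the log2 scale (DESeq2 adjusted p 1.23e-07). Together the 4 lists had 14 rises and 5 falls among 44 genes, against the 17.7% and 13.5% of all genes given above. The number of falls was 2 with a transcript length offset, without shCtrl library 1 and without shPCBP1 library 2. In the fits without those libraries, CDK1 and BET1 were the falls that remained.

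**Figure D5:**
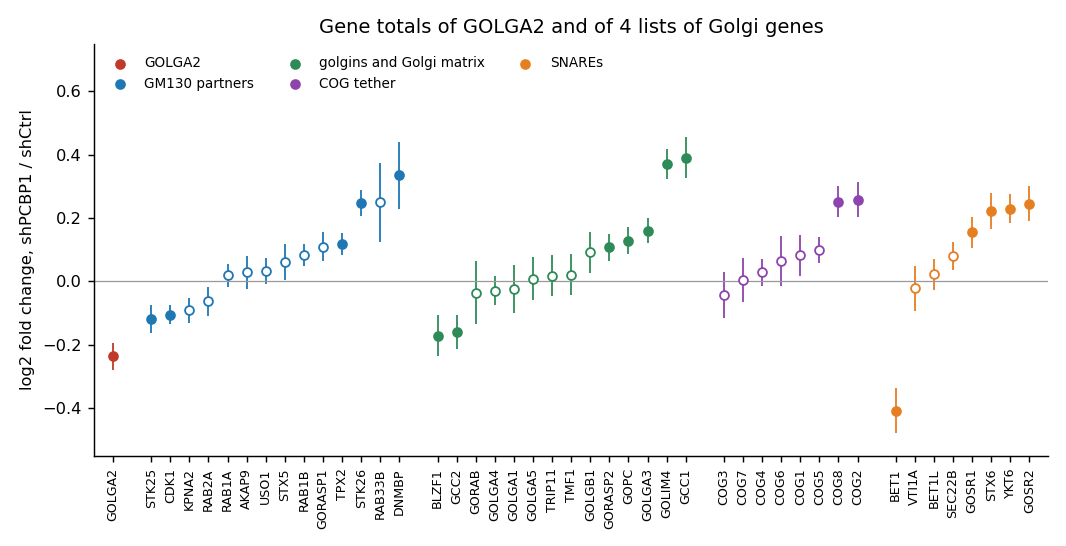
DESeq2 log2 fold change of the gene total, shPCBP1 against shCtrl, for GOLGA2 and the 44 genes of 4 Golgi lists, with bars of 1 SE from 3 libraries per group. Filled points have an adjusted p under 0.05 over all genes tested. GOLGA2 lies at -0.24, and the lists range from -0.41 for BET1 to 0.39 for GCC1.

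GOLGA2 belongs to a family with many similar copies. Of 55 annotated genes whose symbols begin with GOLGA6, GOLGA8 or GOLGA2P, 33 entered the fit and 10 received an adjusted p, of which 0 rose and 3 fell, where 17.7% of all genes rose and 13.5% fell. These were GOLGA8R (log2 fold change -0.69), GOLGA6L9 (-0.26) and GOLGA8A (-0.11), estimates that are uncertain because the copies can share reads with each other. GOLGA8R shared 59 words of 31 bases with GOLGA2, GOLGA6L9 shared 14 and GOLGA8A 7. Genes within 50 kb of GOLGA2 numbered 7, of which 5 had an adjusted p, 3 fell and 1 rose, too few to set against the same 17.7% and 13.5%. DNM1, the dynamin gene (-0.42), SWI5 (-0.34) and the coenzyme Q gene COQ4 (-0.25) fell, and TRUB2 (0.13), a mitochondrial pseudouridine synthase gene, rose. DNM1 lost its call with a transcript length offset (DESeq2 adjusted p 0.0667). TRUB2 lost its call under 6 of 12 alternatives, among them edgeR (adjusted p 0.0681) and the fits without shCtrl library 1 or 2 or without shPCBP1 library 1 or 2 (DESeq2 adjusted p from 0.0565 to 0.0948).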

How the data were processed

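Poly-A RNA of 6 K562 libraries was sequenced in paired-end runs of 150 cycles, per the labels. Salmon 1.10.2 gave the authors' deposited estimated counts per transcript, which were not normalised and need not be whole, and the deposited TPM, scaled by the authors on effective length. Neither strandedness nor the annotation release of the index was given in the sources used here. Of 252045 transcripts, 251612 matched GENCODE release 44, all GOLGA2 transcripts with version and length among them, and the unmatched held 0.136% to 0.147% of counts. Effective lengths were used for description and for the transcript length offset of 1 alternative fit.

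Gene totals were the rounded sums of transcript counts, and those of 10 or more over all libraries entered DESeq2 1.42.0 in R 4.3.3 (Wald test, two-sided, unshrunken, group as the only term). edgeR 4.0.16 and other fits were alternatives. This fit was first tried on simulated data. Python 3.11.15 summed TPM by exon. Libraries of one group differed by more than sampling noise (chi-square per degree of freedom 6.48 to 16.4).

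Members, exons, gene lists and naming rules were chosen with earlier results of these data known. Named were transcripts with a mean of at least 1 TPM in either group, GORASP1, USO1, RAB1A and RAB1B, up to 4 genes of each list with the lowest p among those under an adjusted p of 0.05, and the 3 genes most like GOLGA2 with a mean of at least 500 normalised counts. Other genes are marked where named. The lists were GM130 partners, golgins and Golgi matrix genes, COG subunits, SNAREs, GOLGA2 paralogs and neighbours within 50 kb.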

Additional observations from a re-analysis of the deposited data

How the results depend on the processing

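The fall of the GOLGA2 total kept its direction under 15 alternatives and its call under each of them that had a test, with log2 fold changes from -0.26 to -0.20. Under edgeR the adjusted p was 0.000542. Leaving out each library in turn gave log2 fold changes from -0.26 to -0.20, differences of -10.5 to -8.85 points for the upstream exon and -35.6 to -33.8 points for the downstream exon. The falls among the 44 Golgi genes numbered 5, 2 with a transcript length offset, and 2 to 4 when a library was left out. Rises numbered 12 to 14 over the 12 alternatives. Among the single named genes that were checked, 263 checks kept direction and call, 12 lost the call, 1 gained it and 0 reversed. These counts leave out STK25, BLZF1, GCC2, the named GOLGA6 and GOLGA8 paralogs and the genes most like GOLGA2. Deviations from the group means of libraries with the same replicate number correlated at 0.01, 0.0045 and -0.03 over 21567 genes. These values show no shared deviation, but cannot tell whether libraries with the same number were prepared together. With the replicate number as a block the log2 fold change of GOLGA2 was -0.24, and the Golgi lists had 13 rises and 4 falls. The spread between libraries was widest for the transcripts with both exons and with the upstream exon only.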
